A study of Mus musculus with 51 samples.

Results

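The comparison concerned a small spike, 0.05 pmol per gene, set against no spike at all. It used 12 of the 51 arrays of the series: the 6 arrays titled 0.05 pmol (replicates 1 to 6) and the 6 titled 0 pmol (replicates 1 to 6), chosen by title alone. All were spotted 2-colour arrays, and both channels of every array held RNA of CRL1606. This mouse B-cell hybridoma, a fusion of spleen cells with a myeloma, secretes an antibody against fibronectin. On the spiked arrays, 100 genes had been added to channel 1 and another 100 to channel 2, each gene at 0.05 pmol. On the 0 pmol arrays the RNA was hybridised against itself with nothing added. The hybridoma is 1 cell line, and nothing in the labels says that the replicates came from separate cultures, so every p-value here rests on array-to-array spread, and that spread may be only technical. The main fit took this spread from all 51 arrays and not from the 12 alone. By its title the series used spike-ins to evaluate gene identification methods, and 0.05 pmol is the second smallest of the 10 amounts added.

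A spike-in is nucleic acid of chosen genes added to a background in a known amount. Because the same cells supply both channels, a gene that was not spiked should give equal signal in both, and a spiked gene should give a ratio whose sign depends on the channel that received it. The sign of a ratio is therefore not read as something the hybridoma does. Nor does a sign alone show that a gene was added: Tec and Ms4a4b were negative, and E2f4 positive, on every unspiked array too. Of the genes with the largest differences here, Galnt13 starts mucin-type O-glycosylation by adding N-acetylgalactosamine to serine or threonine, Tec is a cytoplasmic tyrosine kinase of antigen receptor signalling, and Ms4a4b is a membrane-spanning protein of lymphocytes. Values are log2 ratios after each array was centred on its median. No source used here gives the channel in the numerator, so a ratio is called positive or negative only. A feature is a probe printed as a pair of spots, and the pair was averaged. Genes without a symbol are given by the number of their first spot.

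The 12 arrays measured 15990 to 16825 of 16896 spots. Before centring, the array medians ran from -3.11 to -1.07 at 0 pmol and from -2.67 to -0.75 at 0.05 pmol. A total of 7920 features entered the test, with a median SE of the difference of 0.28. The immunoglobulin and plasma cell list was thinly represented: 4 of its 32 genes were matched by symbol, and 2572 of the 7920 features carry no symbol. Of the 5 features of these genes limma called 0, with 2 at an unadjusted p under 0.05. Since both channels hold the same hybridoma RNA, the ratio of an unspiked gene carries no level of that gene. The labelled cell type could not be checked from such ratios.

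Galnt13 showed the largest difference of the comparison. Its log2 ratio lay between 5.96 and 8.17 on the 6 spiked arrays, with a median of 7.57. On the 5 unspiked arrays that measured it, the ratio lay between -1.21 and -0.11, with a median of -0.38. The groups did not overlap, and every spiked array was clearly positive while every unspiked one was below 0. The mean was 7.27 ± 0.82 (SD, n = 6) against -0.62 ± 0.53 (SD, n = 5), a difference of 7.89 with an SE of 0.54 and an adjusted p of 1.8e-14 in limma. Both spots of the pair showed it: the first spot ran from 6.0 to 8.14 and the second from 5.93 to 8.21 at 0.05 pmol.

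Below Galnt13 on the positive side came a pair of genes with differences near 7. Tlr1, a receptor for bacterial lipopeptides, was between 5.11 and 7.02 at 0.05 pmol (median 5.95) and between -1.77 and -0.32 at 0 pmol (median -0.70), a difference of 6.83 with an SE of 0.66. Zfp292, a zinc finger transcription factor, was between 2.77 and 7.70 (median 7.21) against -1.0 to -0.20 (median -0.48), a difference of 6.81 with an SE of 0.75. Its lowest spiked value, 2.77, was that of replicate 5, and it still lay above every unspiked array. E2f4, an E2F transcription factor that mostly represses cell cycle genes, was between 5.32 and 7.97 (median 5.62) against 0.53 to 0.83 (median 0.71). The unspiked arrays lay close together above 0, and the difference was 5.26 with an SE of 0.59.

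The next positive features were spread over unrelated functions. Cald1, the actin-binding caldesmon, differed by 5.20 and was negative on all 6 unspiked arrays, from -2.82 to -0.13, and positive on all 6 spiked ones, from 2.56 to 4.81. Cltb, a clathrin light chain, differed by 4.85, Slc2a5, the fructose transporter, by 4.81, and Sspn, the sarcospan of the dystrophin complex, by 4.76. Nkain2, a protein that interacts with the sodium pump, followed at 4.44 and Ogfrl1 at 4.24. The features at spots 2748 and 3580, which carry no symbol, differed by 4.54 and 4.18. Among these, Nkain2 varied most between spiked arrays, from 1.78 to 6.29, and Ogfrl1 ran from 2.59 to 4.79. One further feature, spot 8362, differed by 7.31 (SE 0.94) but had been measured on 4 of the 6 unspiked arrays, so it fell outside the rule for named genes; it is mentioned after its values were seen.

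On the negative side, Tec led. Its ratio lay between -8.00 and -5.16 on the spiked arrays, with a median of -6.95, and between -2.34 and -0.25 on the unspiked ones, with a median of -0.68. The means were -6.72 ± 0.94 (SD, n = 6) and -0.99 ± 0.89 (SD, n = 6), and the difference was -5.73 with an SE of 0.60 and an adjusted p of 3.61e-09 in limma. Ms4a4b lay between -8.80 and -4.71 (median -6.20) against -1.89 to -0.16 (median -0.82). Its difference was -5.45 with an SE of 0.62 and a limma adjusted p of 1.44e-08. Both genes were negative already without spike on all 6 arrays, and neither had overlapping groups. For each, the widest gap between the spots of a pair was at 0 pmol: Tec gave -0.85 and -3.83 on replicate 2.

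Fem1c, which picks substrates for a ubiquitin ligase, was called at both of its features. The feature at spot 15721 lay between -6.76 and -3.06 (median -5.98) against -0.61 to -0.01 (median -0.20). The feature at spot 2642, printed in another block, lay between -5.47 and -2.27 (median -5.08) against -0.43 to 0.25. Their differences were -5.14 (SE 0.61) and -4.34 (SE 0.77). Zfp330, a zinc finger protein, differed by -5.03, and Slc25a44, a mitochondrial carrier of branched-chain amino acids, by -4.92. Nagk, the kinase that salvages N-acetylglucosamine, differed by -4.83, Iqgap2, a scaffold of the actin cytoskeleton, by -4.78, and Cmpk1, a pyrimidine nucleotide kinase, by -4.39. Prkaca, the catalytic subunit of protein kinase A, differed by -4.35, the glucocorticoid receptor Nr3c1 by -4.34, and spot 6704, which has no symbol, by -4.22.

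Of these negative genes, Iqgap2 had the smallest SE, 0.42, with spiked values from -6.14 to -3.07 and unspiked values from -0.05 to 0.77. Prkaca had the widest spiked range, from -6.03 to -0.54, against 0.31 to 0.78 without spike. Over the 24 features, 12 in each direction, the largest limma adjusted p was 0.000107. The 21 that were measured on all 12 arrays had groups that did not overlap, a property shared by 328 of 7227 features so measured (4.54%). The 24 were picked from these arrays for large differences, which favours groups that do not overlap. Of the 24, 20 had a larger mean size on spiked replicates 1 to 3 than on replicates 4 to 6.

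**Figure D1:**
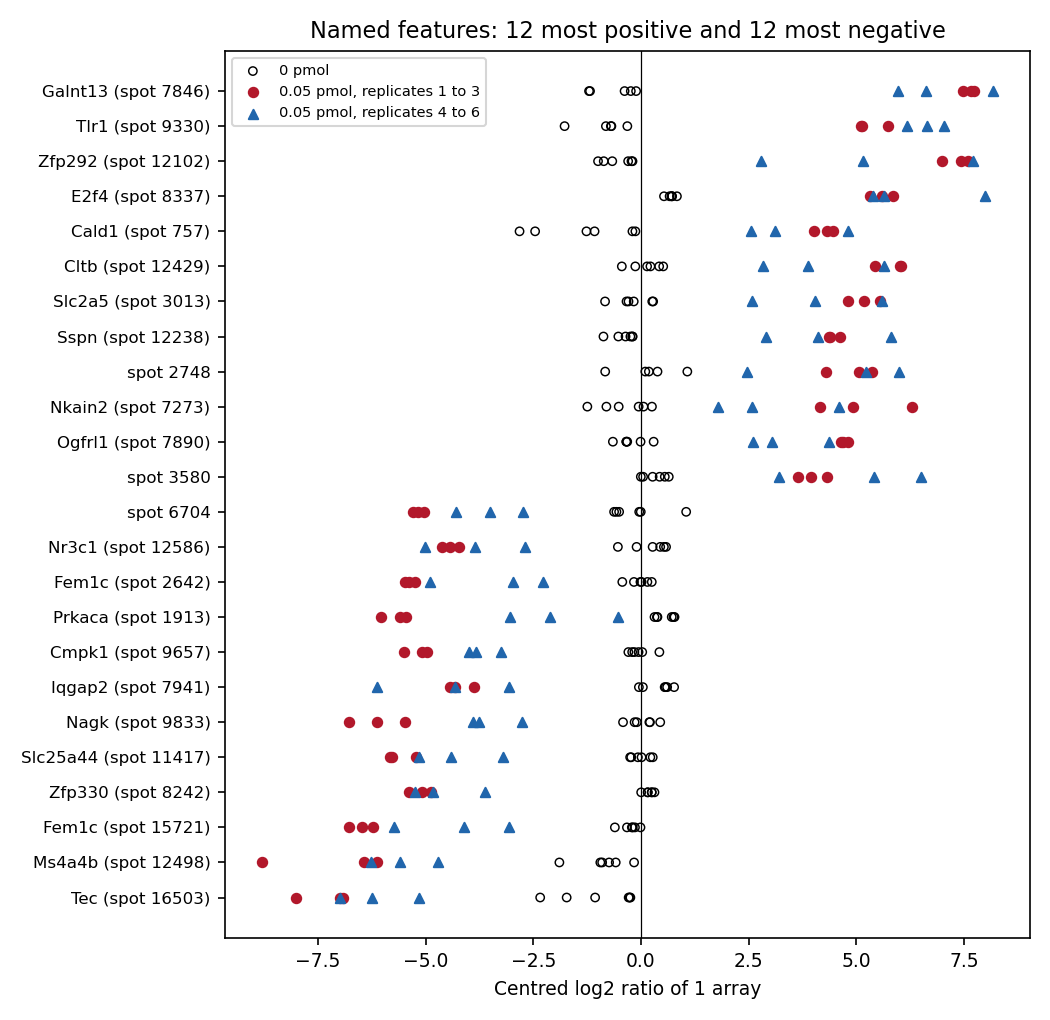
Centred log2 ratio of each array (horizontal axis) for the 12 most positive and 12 most negative called features that met the rule for named genes, so without spot 8362 (vertical axis), with open circles for the 0 pmol arrays, filled circles for 0.05 pmol replicates 1 to 3 and triangles for 0.05 pmol replicates 4 to 6. The spiked values of every feature lie on one side of its unspiked values; Galnt13 runs from 5.96 to 8.17 and Tec from -8.00 to -5.16.

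In all, 329 of 7920 features differed between 0.05 and 0 pmol at a limma adjusted p under 0.05 (4.15%), 178 positive (2.25%) and 151 negative (1.91%). The median difference of all features was -0.01. Differences of at least 2 log2 units were found for 76 positive and 74 negative features among them. An unadjusted p under 0.05 was reached by 1319 features. These p-values use the spread of all 51 arrays. In a limma fit of the 12 arrays alone 303 features were called, and 235 of the 329 kept their call. The limma adjusted p there was 3.9e-08 for Galnt13, 2.6e-06 for Tec and 1.4e-05 for Ms4a4b. Without centring the median of all features moved to 0.31, and 143 were called, 85 positive and 58 negative. With the arrays scaled to 1 spread 186 were called, and with array weights in the fit of the 12 arrays 1321.

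No source used here names the spiked genes. A stand-in was taken from the largest spike: the 100 features with the highest mean ratio on the 3 arrays at 2 pmol and the 100 with the lowest, measured on all 3 with 1 sign. These are called candidates. The choice used neither group compared here. The lowest positive candidate had a 2 pmol mean of 3.99 and the next feature below it 3.89. On the negative side the last candidate stood at -2.44 and the next feature at -2.43, so the cut there falls within a continuous range. A candidate is not known to be a spiked gene, and a feature outside the list is not known to be unspiked.

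Of the 200 candidates, 148 were called at 0.05 pmol with the sign they had at 2 pmol, 77 of the 100 positive and 71 of the 100 negative ones, beside 2.25% and 1.91% of all features. The median difference was 2.69 for the positive candidates and -2.42 for the negative ones. All 100 positive candidates had a positive difference, and 99 of the 100 negative ones a negative difference. At 0 pmol the median level was 0.17 for the positive and 0.04 for the negative candidates. At 0.05 pmol it was 2.69 and -2.46. With candidates chosen on the 6 arrays at 0.5 pmol instead, 143 were called, and with 50 candidates each way 91 of 100. With the arrays scaled to 1 spread the count of called candidates fell to 96 of 200.

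**Figure D2:**
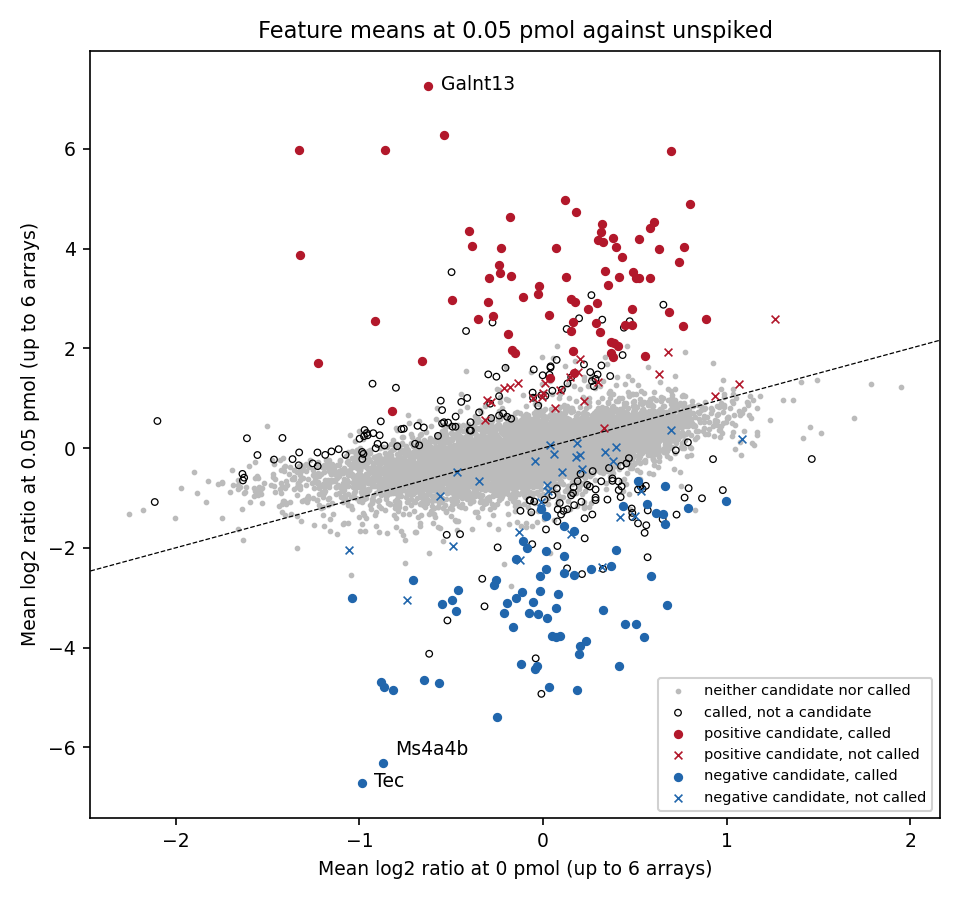
Mean log2 ratio of each feature at 0 pmol (horizontal axis) and at 0.05 pmol (vertical axis); the dashed line marks equal means. Called positive and negative candidates are filled, candidates not called are crosses, and called features that are not candidates are open circles. Galnt13 stands at 7.27 on the vertical axis, Ms4a4b at -6.32 and Tec at -6.72, while most of the other called features lie closer to the line of equal means.

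A candidate could be missed although its 2 pmol ratio was large. Ino80, a chromatin-remodelling ATPase, stood at 6.24 at 2 pmol. At 0.05 pmol it lay between 0.16 and 2.66 (median 0.78) against -0.35 to 0.17 without spike, and the difference of 1.02 (SE 0.67) had a limma adjusted p of 0.465. Replicates 1 to 3 averaged 0.20 and replicates 4 to 6 averaged 1.83. Cnot10, a subunit of the CCR4-NOT deadenylase, differed by 1.40 (limma adjusted p 0.195), and the feature at spot 10350 by 1.29 (0.0709), although the groups of the latter did not overlap. In the fit of the 12 arrays alone both were called (limma adjusted p 0.0301 and 0.00852), and with the replicate block as well (0.0396 and 0.0232).

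Among the negative candidates that were missed, Tcra, the T-cell receptor alpha gene, stood at -6.21 at 2 pmol. It was split by replicate: -0.97, -1.05 and 0.47 on replicates 1 to 3 and -4.43, -3.86 and -4.48 on replicates 4 to 6. The difference of -2.71 (SE 0.88) had a limma adjusted p of 0.0687. Smpd4, a sphingomyelinase, was split the other way, with -3.94, -3.37 and -4.0 on replicates 1 to 3 and -0.54, 0.61 and 0.89 on replicates 4 to 6. Its difference was -1.88 (SE 0.66, limma adjusted p 0.102). The feature at spot 6646 differed by -1.86 (limma adjusted p 0.0841), and it was called in 9 of 34 alternatives, among them the fit of the 12 arrays alone (0.0113) and the replicate block (0.0053). Tcra was called in 7 of 34 alternatives and Smpd4 in 6, but neither in the fit of the 12 arrays alone, and Ino80 in none of 34.

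The 52 missed candidates were not spread evenly over the print. Block 27 held 7 of them among 17 candidates, and block 38 held 7 among 13. In block 27, all 8 features of print column 7 were positive candidates. The first, Cpsf6, a subunit of an mRNA cleavage factor, had a 2 pmol mean of 8.04 and was called at 0.05 pmol (3.41), and so was Tmc7 below it (2.21). The 6 features further down the column, Usp25, spot 9291, spot 9335, Cnot10, Polh and spot 9467, had 2 pmol means of 4.44 to 5.60 and differences of 1.06 to 1.41, and none of these 6 passed in the fit of all arrays (lowest limma adjusted p 0.114), although Cnot10 did in that of the 12 arrays. Whether all 8 are spiked genes printed together could not be settled from the ratios, so these 6 may not be spiked genes that were missed. In print column 11, 10 of 14 candidates were missed, 9 of them negative. These runs were noticed after the values were seen.

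Of the 329 called features, 181 were not candidates, 101 positive and 80 negative. Their median absolute difference was 1.22, against 3.00 for the called candidates. In 56 of the 181 the 0 pmol mean lay farther from 0 than the 0.05 pmol mean did, which was so for 1 of the 148 called candidates. For the 101 positive ones the median level was -0.48 at 0 pmol and 0.60 at 0.05 pmol. For the 80 negative ones it was 0.26 and -1.06. On single arrays many features that are not candidates departed from equal signal. Of these features, 4.58% to 17.8% per array lay more than 1 log2 unit from 0 at 0 pmol, and 5.07% to 30.0% at 0.05 pmol.

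The largest of these features resembled candidates in size. Tcea3, a transcription elongation factor, lay between 0.66 and 4.92 (median 4.36) against -1.39 to 0.40, a difference of 4.02 (SE 0.56); its 2 pmol mean was 3.47, below the lowest positive candidate. Prdx2, a peroxiredoxin that reduces hydrogen peroxide, varied little, from 2.59 to 3.25 (median 3.16) against -0.02 to 0.54, with a difference of 2.80 and an SE of 0.32. The feature at spot 12560 differed by 2.79, and Baiap3, a protein of dense-core vesicle release, by 2.77. On the negative side stood Slc25a44, described above, 2210016L21Rik (-4.18), the histone acetyltransferase Kat6a (-3.51) and spot 16282 (-2.94). Slc25a44 and 2210016L21Rik had 2 pmol means of -4.52 and -4.18, past the limit for negative candidates, but Slc25a44 did not keep 1 sign on the 3 arrays at 2 pmol and 2210016L21Rik was measured on 2 of them. For spot 16282 the call was lost in 7 of 32 alternatives, among them without 0 pmol replicate 1 (limma adjusted p 0.0527), with scaled arrays (0.065) and with the replicate block (0.188). For Baiap3 it was lost without moderation (0.0596).

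Position on the print went with being a candidate and with being called. Print columns 7, 8, 20 and 21, of 22, were the columns with the most candidates. They held 1536 of the 7920 features (19.4%) but 100 of the 200 candidates (50%), a share made high by that choice. They also held 81 of the 148 called candidates and 67 of the 181 other called features (37.0%). Column 8 had the largest share of called features, 51 of 384 (13.3%), and 21 of the 80 negative features that were called without being candidates lay in it. Columns 18 and 22 held 0 candidates. A called feature that was not a candidate stood directly beside a candidate of its own sign in 17 of 101 positive cases (16.8%) and 11 of 80 negative cases (13.8%), while 4.05% of the features that were not called stood beside a positive and 3.99% beside a negative candidate. The part of position in the calls was not tested.

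**Figure D3:**
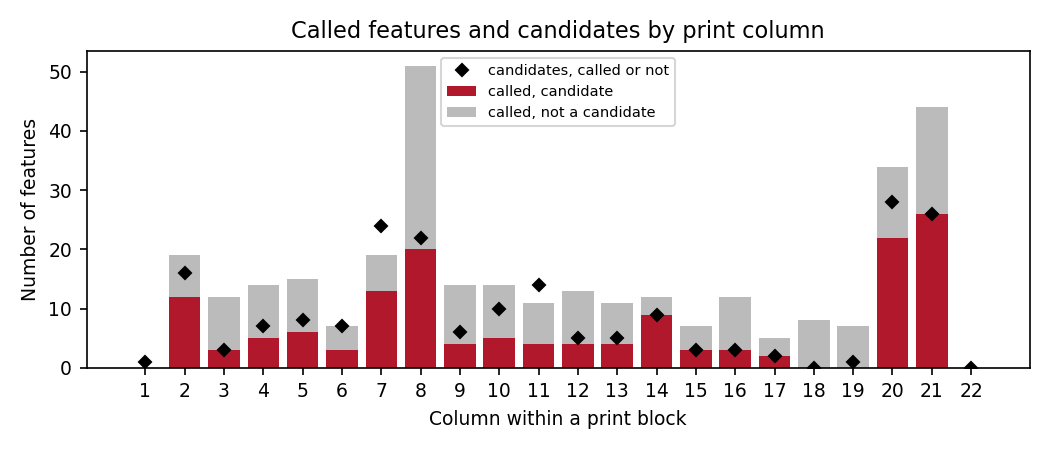
Number of called features (vertical axis) in each of the 22 columns within a print block (horizontal axis), split into called candidates and other called features, with diamonds for all candidates of the column, called or not. Columns 8, 20 and 21 hold 51, 34 and 44 called features, and columns 7, 8, 20 and 21 hold 100 of the 200 candidates.

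Many genes were printed as several features, which gives a second look at a called gene. Whether the added material matched every feature of its gene was not tested. Of 843 genes with several features, 28 had a called candidate. In 26 of the 28 a single feature was called. Only Fem1c and Hk2 had both called, Fem1c in 1 direction and Hk2, the hexokinase of muscle and many tumours, in opposite ones. Hk2 at spot 9437 was tight, between 4.32 and 4.84 against 0.40 to 0.93, and differed by 3.93 (SE 0.44). Hk2 at spot 15849 lay between -2.69 and -0.03 against -0.33 to 0.37 and differed by -1.37 (SE 0.40, limma adjusted p 0.0364). The latter call was lost without 0.05 pmol replicate 1, 2 or 3 and without 0 pmol replicate 4, 5 or 6 (limma adjusted p 0.0787 to 0.114), and its adjusted p was 0.149 in the fit of the 12 arrays alone.

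For Galnt13 itself, the other feature, at spot 11444, gave no call. It lay between -4.19 and 0.03 at 0.05 pmol (median -0.37) and between -0.63 and 1.06 at 0 pmol (median -0.30), and the groups overlapped. The difference was -0.94 (SE 0.40, limma adjusted p 0.20). Its value of -4.19 was that of replicate 4, with replicate 6 next and the other spiked arrays between -0.43 and 0.03. Cald1 had 5 features: one at 5.20, the others between -0.64 and 1.04 and not called. The 39 other features of the 28 genes, those that were not called candidates, had a median absolute difference of 0.25.

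The spiked arrays fell into replicates 1 to 3 and replicates 4 to 6. As a measure of separation, the difference between the medians of the positive and negative candidates of an array was divided by 2. It was 3.31, 3.23 and 3.18 on replicates 1 to 3 and 2.27, 1.20 and 2.37 on replicates 4 to 6. Without spike it ran from -0.02 to 0.09. No spiked array came near the unspiked ones, and replicate 5 was the lowest. Of the negative candidates, 82 of 100 were larger in size on replicates 1 to 3, and of the positive ones 64 of 100. The median level of the negative candidates was -3.13 on replicates 1 to 3 and -1.78 on replicates 4 to 6, and that of the positive ones was 3.20 and 2.11.

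Other measures moved with this split. The paired spots correlated across features at 0.958, 0.925 and 0.939 on spiked replicates 1 to 3 and at 0.497, 0.455 and 0.691 on replicates 4 to 6. The unspiked arrays were split the other way, with 0.617 to 0.713 on replicates 1 to 3 and 0.785 to 0.805 on replicates 4 to 6. Spiked replicates 1 to 3 correlated with one another at 0.81 to 0.90, replicates 4 to 6 at 0.50 to 0.52, and the first set with the other at 0.35 to 0.48. Without spike these correlations were 0.31 to 0.45, 0.72 to 0.75 and 0.19 to 0.31. Unspiked replicates 4 to 6 also held 138 to 151 values at the upper limit of the deposited ratios, against 2 to 7 on unspiked replicates 1 to 3. Before centring, the spiked medians were -0.87 to -0.75 on replicates 1 to 3 and -2.67 to -2.07 on replicates 4 to 6. At 0 pmol the order was the other way, -3.11 to -2.18 on replicates 1 to 3 and -1.46 to -1.07 on replicates 4 to 6. The labels do not say whether these sets were hybridised apart, and the part of the split in the calls was not tested. Called features numbered 269 with replicates 1 to 3 of both groups (123 of the candidates) and 1126 with replicates 4 to 6 (95 of the candidates). Left out in turn, after the data had been seen, spiked replicates 4 to 6 gave 321 calls and 149 called candidates, and spiked replicates 1 to 3 gave 843 and 106.

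**Figure D4:**
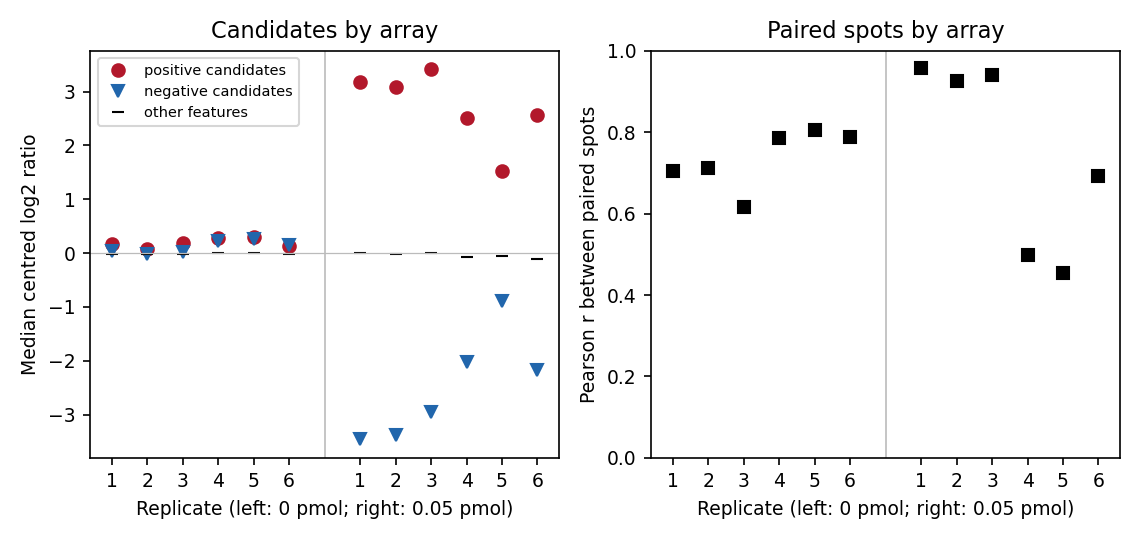
Left, median centred log2 ratio of the positive candidates, the negative candidates and the other features on each array (vertical axis) by replicate (horizontal axis), with 0 pmol to the left of the line and 0.05 pmol to the right. Right, Pearson correlation across features between the paired spots of each array. At 0.05 pmol, replicates 1 to 3 reach a separation of 3.18 to 3.31 with paired-spot correlations of 0.925 to 0.958, and replicates 4 to 6 reach 1.20 to 2.37 with 0.455 to 0.691.

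The series concerned methods of identifying genes, so the 12 arrays were ranked by 3 measures and the candidates with their own sign were counted among the first 200 features. Ranking by the absolute mean difference placed 142 of the 200 candidates there. The moderated t of limma placed 129 and the ordinary t 114. The first feature that was not a candidate came after 10 candidates by mean difference, after 6 by moderated t and after 2 by ordinary t. With replicates 1 to 3 of both groups the counts were 127, 124 and 103. With replicates 4 to 6 they were 100, 64 and 24. Scoring against candidates chosen at 0.5 pmol gave 143, 131 and 114 for the 12 arrays. These are counts against a list that was itself drawn up by mean ratio at another amount, and no test was made between the rankings.

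**Figure D5:**
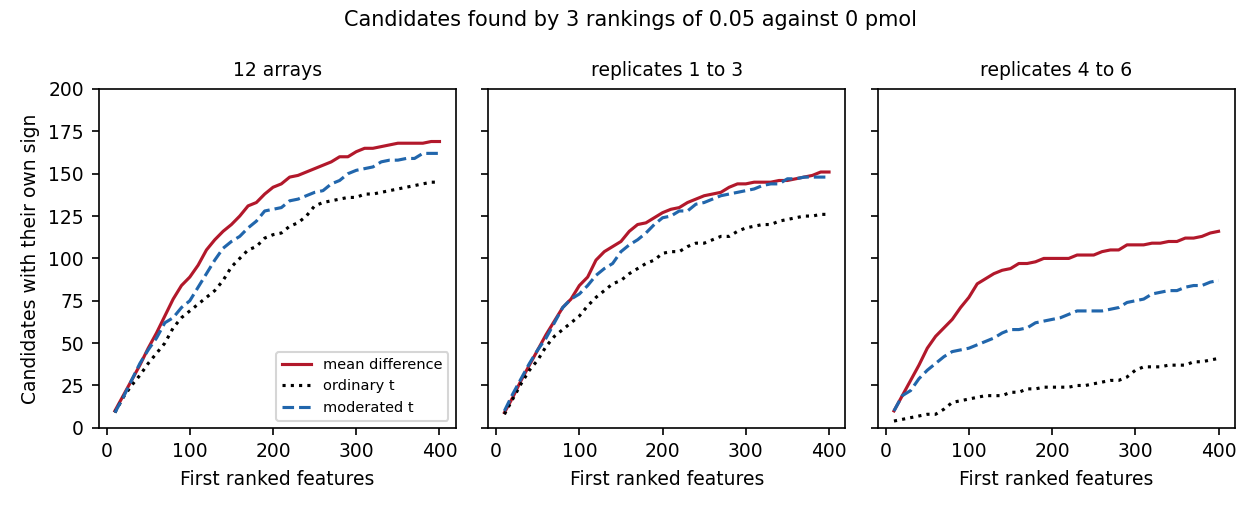
Number of candidates found with their own sign (vertical axis) among the first ranked features (horizontal axis) for 3 rankings of 0.05 against 0 pmol: the 12 arrays, replicates 1 to 3 and replicates 4 to 6. Among the first 200 features of the 12 arrays the mean difference finds 142, the moderated t 129 and the ordinary t 114; with replicates 4 to 6 these are 100, 64 and 24.

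At the neighbouring amounts Galnt13, Tec and Ms4a4b stood at levels close to those at 0.05 pmol. Galnt13 had a mean of 6.95 ± 0.39 (SD, n = 3) at 0.025 pmol, 7.27 ± 0.82 (n = 6) at 0.05 pmol and 7.66 ± 0.75 (n = 6) at 0.1 pmol. Tec had -6.18 ± 0.89 (n = 3), -6.72 ± 0.94 (n = 6) and -6.15 ± 0.74 (n = 6), and Ms4a4b -5.78 ± 1.02 (n = 3), -6.32 ± 1.37 (n = 6) and -5.93 ± 0.89 (n = 6). These neighbours in the order of amounts did not differ beyond their spread. The difference of 0.05 minus 0.1 pmol was -0.40 (SE 0.51) for Galnt13, -0.56 (SE 0.60) for Tec and -0.39 (SE 0.62) for Ms4a4b. At 2 pmol, Galnt13 reached 9.76 ± 0.53 (n = 3), Tec -7.12 ± 0.64 (n = 3) and Ms4a4b -7.07 ± 0.56 (n = 3); for these amounts the Galnt13 difference was -2.49 (SE 0.63).

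Set directly against 0.025 pmol, 23 of 7904 features differed at 0.05 pmol (0.291%), 22 of them with a higher ratio at 0.05 pmol, and 0 of the 23 were candidates. Col5a2, a fibrillar collagen chain, differed by 3.55, the kinesin Kif21a by 2.88 and the heparan sulfate sulfotransferase Hs3st2 by 2.44. The 0.025 pmol arrays differed widely for these genes: Kif21a stood at -0.94, -6.02 and -2.98 there, Hs3st2 at -0.68, -6.75 and -1.65, and Col5a2 had been measured on 2 arrays, at -5.90 and -2.0. Wac, the only feature with a lower ratio at 0.05 pmol, was at 0.73 and 1.61 on 2 arrays against -1.51 to -0.12. The count was 6 without 0.025 pmol replicate 2, 120 without 0.025 pmol replicate 1, and 15, 71, 9 and 10 without 0.05 pmol replicates 1, 2, 4 and 5. In the fit of the arrays of these amounts alone limma called 0, with 357 at an unadjusted p under 0.05.

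Against 0.1 pmol, 3 of 7920 features differed (0.0379%), all with a lower ratio at 0.05 pmol, and none was a candidate. Prox1, a transcription factor of lymphatic endothelium, averaged -1.22 ± 0.39 (SD, n = 6) against -0.09 ± 0.41 (n = 6). The fucosyltransferase Fut9 averaged -2.01 ± 0.90 against -0.53 ± 0.42, and the second feature of Sspn, at spot 10136, averaged -1.67 ± 0.78 against -0.14 ± 0.62. All 3 were negative without spike as well, at -0.94, -1.34 and -0.77. The limma count fell to 0 without 0.05 pmol replicate 2 or 4 and without 0.1 pmol replicate 2 or 5, to 1 without 0.1 pmol replicate 6, and to 0 in the fit of the arrays of these amounts alone, which gave 611 at an unadjusted p under 0.05.

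Against 2 pmol, 895 of 7917 features differed (11.3%), 352 with a higher and 543 with a lower ratio at 0.05 pmol. Without centring there were 529, 10 higher and 519 lower. Among the 895 were 81 positive candidates with a lower ratio at 0.05 pmol and 56 negative ones with a higher ratio. The 2 pmol arrays chose the candidates, so these counts and the next values describe and do not test. The median level of the positive candidates was 2.83 at 0.025, 2.69 at 0.05, 2.83 at 0.1 and 5.50 at 2 pmol, and that of the negative ones was -2.73, -2.46, -2.42 and -4.01. Atp2b2, a calcium pump of the plasma membrane, averaged 3.53 at 0.05 pmol and 8.08 at 2 pmol, and spot 839 averaged 3.45 and 8.26. The stress-responsive transcription factor Nfe2l1 averaged -1.29 and -5.77, the RNA polymerase I factor Rrn3 -1.57 and -5.57, and the aspartic protease Ctse, cathepsin E, -1.32 and -5.26.

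Lists of genes by function were read against the 4.15% of all features that were called. Of 22 mucin-type O-glycosylation features, 1 was called, the leading Galnt13 feature, which is near that share, and the list's median difference was -0.18 beside -0.01 for all features. Galnt1, another enzyme of the same step, had a difference of 1.96 with a limma adjusted p of 0.0936. Among 19 features of the Tec family and antigen receptor signalling list, 2 were called, both negative: Tec and Cd22, an inhibitory receptor of B cells. Cd22 lay between -5.90 and -0.22 (median -4.55) against -0.22 to 0.54 and differed by -4.16 (SE 0.66). The Tec relatives Btk (0.15) and Txk (0.27) did not pass. Of 7 features of Ms4a proteins and tetraspanins, Ms4a4b alone was called, while the B-cell marker Ms4a1 had a difference of -0.35.

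In the T-cell and NK-cell list, 1 of 11 features was called: Cd3e, a chain of the T-cell receptor complex, with a difference of 0.98 (SE 0.28, limma adjusted p 0.0323). Cd3e moved towards 0, from -1.63 ± 0.65 (SD, n = 5) to -0.65 ± 0.49 (SD, n = 6), and its groups overlapped. That call was lost in the fit of the 12 arrays (limma adjusted p 0.153), without 0.05 pmol replicate 3 (0.0951) or 5 (0.0703), and without 0 pmol replicate 2 (0.107), 4 (0.140) or 5 (0.0631). Krt18, a keratin of simple epithelia, differed by 2.75 (SE 0.40) and was the 1 feature called of 11 in the list of other tissues. E2f4 was the 1 called of 15 cell cycle features. Of 15 glycolysis features 4 were called, Slc2a5, Nagk and both of Hk2, 2 in each direction. Ndufa2, a subunit of respiratory complex I, differed by -3.97 (SE 0.56) and was the 1 called of 10 oxidative phosphorylation features. In the myeloid, ER folding and secretion, and cytosolic ribosomal protein lists, limma called 0 of 4, 12 and 6 features, with 0, 3 and 1 at an unadjusted p under 0.05. All called list members but Cd3e were candidates. Beside the 4.15% of all features called, each list but glycolysis and that of the Tec family held 1 called feature or none. Nothing is read from such counts.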

How the data were processed

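For each spot of each array the series matrix holds a log2 ratio that the authors deposited. The base of the log is an inference from the values, since no source states it. Background correction, filtering, normalization and the numerator channel are not given in the sources used here, and scanner intensities were not used here. Values at the upper limit of 16.61, 1074 in all 51 arrays, were treated as missing. Each array was centred on the median of its non-control spots, and spots 22 positions apart were averaged into 8448 pairs, of which 528 at 11 control positions were left out. Symbols came from the platform annotation, updated through the RefSeq gene table.

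The test was that of limma 3.58.1 (R 4.3.3), in which the 51 arrays shared a fit with a mean for each amount, empirical Bayes moderation, two-sided p-values, Benjamini-Hochberg adjustment over all features and at least 2 measured arrays per group. The fit was also run on simulated data, and no outcome of that run is given here. It cannot show that the p-values hold for these arrays, whose sets of replicates differed in spread and in correlation. Plots were made in Python 3.11.15 with matplotlib 3.10.9. Alternatives changed the centring, scaling, spots, missing values, moderation, arrays, block and threshold.

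Named genes are the 12 highest and 12 lowest differences among called features measured on at least 5 arrays per group with 1 sign on the spiked arrays, at most 2 without a symbol each way, the marker genes, the 4 largest called features each way that are not candidates, the 3 missed candidates each way with the largest 2 pmol means, up to 4 called members per gene list and, per amount, the 3 highest and 3 lowest direct differences, at most 1 without a symbol each way, with other features of these genes where shown. The comparison, the marker genes and the lists were chosen with earlier results of these data known.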

Additional observations from a re-analysis of the deposited data

Results flagged for a closer look

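On some arrays a named feature stood far from the other 5 of its group. At 0.05 pmol these were E2f4 on replicate 6 (7.97), Zfp330 on replicate 5 (-3.62), Prdx2 on replicate 4 (2.59), Baiap3 on replicate 6 (5.36), Kat6a on replicate 5 (-1.72), Cnot10 on replicate 4 (2.68) and Cd22 on replicate 5 (-0.22). At 0 pmol they were spot 6704 on replicate 6 (1.05), Galnt13 at spot 11444 on replicate 6 (1.06), Baiap3 on replicate 5 (-1.38) and Ino80 on replicate 3 (-0.35). All 11 came from 98 groups of values examined. The rule marks about 5% of groups of independent normal values. Most of these groups are chosen features on the same arrays, so that rate need not hold here. The 7 spiked cases lay on replicates 4 to 6.

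The direct tests between amounts found 23 features that differed between 0.05 and 0.025 pmol, 3 between 0.05 and 0.1 pmol and 895 between 0.05 and 2 pmol.

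Among the 528 control features, which entered no comparison, 35 differed between 0.05 and 0 pmol in a limma fit of all 8448 pairs. Of these, 34 were negative, and 88 control features had an unadjusted p under 0.05. In the main fit, without the controls, 4.15% of the 7920 features were called. Of the 48 copies of 1 unnamed control position, 32 were called, all negative, while each other control position had 1 called copy or none. For the position with 32 calls, the median of the means was 5.55 at 0 pmol and 1.95 at 0.05 pmol, with 4.46 on replicates 1 to 3 and -0.51 on replicates 4 to 6. Neither Gapdh nor Pdia3, the named controls, had a called copy, 0 of 48 each.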

How the results depend on the processing

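The 24 leading features kept their direction and their call in every alternative that could be fitted for them, 33 or 34 each. They were picked from these arrays as the largest called differences, and the alternatives reuse the arrays, so this is no separate evidence. Against 0 in place of the unspiked arrays 2167 features were called, at an adjusted p under 0.01 199, without centring 143, with scaled arrays 186 (96 candidates), with array weights 1321, with replicates 4 to 6 of both groups 1126 (95 candidates), and with spiked replicates 1 to 3 left out, an alternative chosen after seeing the data, 843. Leaving out 1 array gave 257 to 338 calls and 138 to 153 candidates. With 50 candidates each way 91 were called. The replicate numbers did not pair the arrays: deviations of arrays with the same number correlated at -0.05 to 0.01, and no spiked array correlated best with its own number. With the replicate block, 246 features were called in the 12 arrays, against 303 without it; with replicates 1 to 3 and 4 to 6 as the levels of a block, also chosen after seeing the data, 354. Against 0.025 pmol, 4 were called with scaled arrays and 0 in the 2 amounts alone, without centring, with the replicate block and with replicates 1 to 3; leaving out 1 array gave 6 to 120. Against 0.1 pmol all 5 of these gave 0, and leaving out 1 array 0 to 4. Against 2 pmol, 529 were called without centring and 2146 with the replicate block. Leaving out 1 array at 0.05 pmol gave 746 to 898, and no array at 2 pmol was left out. Signs turned for Cd3e against 0 (-0.65), for the second Galnt13 feature with replicates 1 to 3 of both groups (0.26) and with spiked replicates 4 to 6 left out (0.028), and for Smpd4 with replicates 4 to 6 of both groups (0.22) and with spiked replicates 1 to 3 left out (0.17). The cause was not tested. The number of arrays limits the precision, and signal over background was not analysed here.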
